A study of Homo sapiens with 6 samples.

Results

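The 45 nuclear receptor genes compared here are those of the human family other than PPARG that were listed by name, and all 45 were found once each among the 58051 genes of the deposited table. The list was drawn up by family membership, with earlier results of these data known, and its rule uses no measured value. The samples were 3 of A2780-ADR, a human ovarian cancer line resistant to adriamycin (doxorubicin), and 3 of A2780, the parental line, which is sensitive to the drug. No treatment is stated for any of the 6 samples, both lines were grown in the same serum-containing medium, and each is an established line. The comparison is therefore between lines. Whether A2780-ADR was kept in doxorubicin before RNA was taken is not stated. RNA-seq libraries of polyadenylated RNA were sequenced, and the values are read counts that the authors normalized with DESeq, which scales each library by a size factor.

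Nuclear receptors are transcription factors with a zinc finger domain that binds DNA and, in most members, a pocket that binds a small lipophilic ligand such as a steroid, retinoic acid, thyroid hormone, vitamin D, a fatty acid or an oxysterol. Many bind DNA as a pair with a retinoid X receptor. Without ligand such pairs recruit corepressors, and with ligand they recruit coactivators. Receptors with no known natural ligand are called orphan receptors.

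The A2780-ADR libraries held 29653423 to 30513366 reads in genes and the A2780 libraries 27775745 to 29078438, of which 5.54% to 6.36% were mitochondrial over all 6. Libraries of 1 line differed by more than counting noise in each pair, with a chi-square of 2.40 to 9.58 per degree of freedom. Of 11 epithelial and ovarian carcinoma markers, 4 could be tested, and KRT8 (9071 normalized counts in A2780-ADR and 79.1 in A2780) and KRT18 (4072 in A2780-ADR and 130 in A2780) were the 2 that differed, both higher in A2780-ADR. PAX8, WT1, MUC16, CDH1 and MSLN averaged under 10 over the samples, EMX2 had 1 read and KRT7 none, so several defining markers of ovarian carcinoma were nearly absent. Of the other cell type markers, 6 fibroblast genes summed to 37546 to 38544 normalized counts in A2780-ADR and 25320 to 28642 in A2780, 7 immune genes to 58.7 to 75.1 in A2780-ADR and 12.2 to 24.3 in A2780, with CD3E at 0, and 5 endothelial genes to 30.3 to 41.4 in A2780-ADR and 2.03 to 5.09 in A2780. Their part in the results was not tested. Nothing states that the samples of a line were separate cultures, and the p-values then cover only how far these samples differ, perhaps for technical reasons. In such bulk samples fewer cells that express a gene and less RNA per cell cannot be told apart.

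For every gene that averaged 10 or more over the 6 samples, log2(normalized count + 1) was compared between the lines with limma, and a gene was called when its Benjamini-Hochberg adjusted p was under 0.05 and it changed more than 2-fold. A log2 fold change above 0 means a higher level in A2780-ADR, and this scale understates the change of genes with few reads. By this rule 28 of the 45 receptors were tested, and 11 of the 28 (39.3%) were called, against 27.6% of the 17005 genes tested and 26.7% of the 13300 protein-coding genes among them. The 5 called higher in A2780-ADR cells were NR2F2, NR5A1, NR4A2, RORA and VDR, where 13.2% of all tested genes were called higher. The 6 called lower were ESRRG, HNF4G, NR6A1, RARG, PPARA and NR4A1, where 14.4% of all tested genes were called lower. By adjusted p alone 21 receptors passed, against 71.8% of all tested genes, of which 10 changed 2-fold or less, as 44.2% of all tested genes did, and 7 receptors did not pass it. The samples of the lines did not overlap for 22 of the 28, against 74.6% of all tested genes. The median log2 fold change was -0.24 for the 28 receptors and -0.01 for all tested genes. The smallest two-sided p of an exact permutation test with 3 against 3 samples is 0.1, so each p-value given here leans on limma's pooling of the spread over genes.

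**Figure D1:**
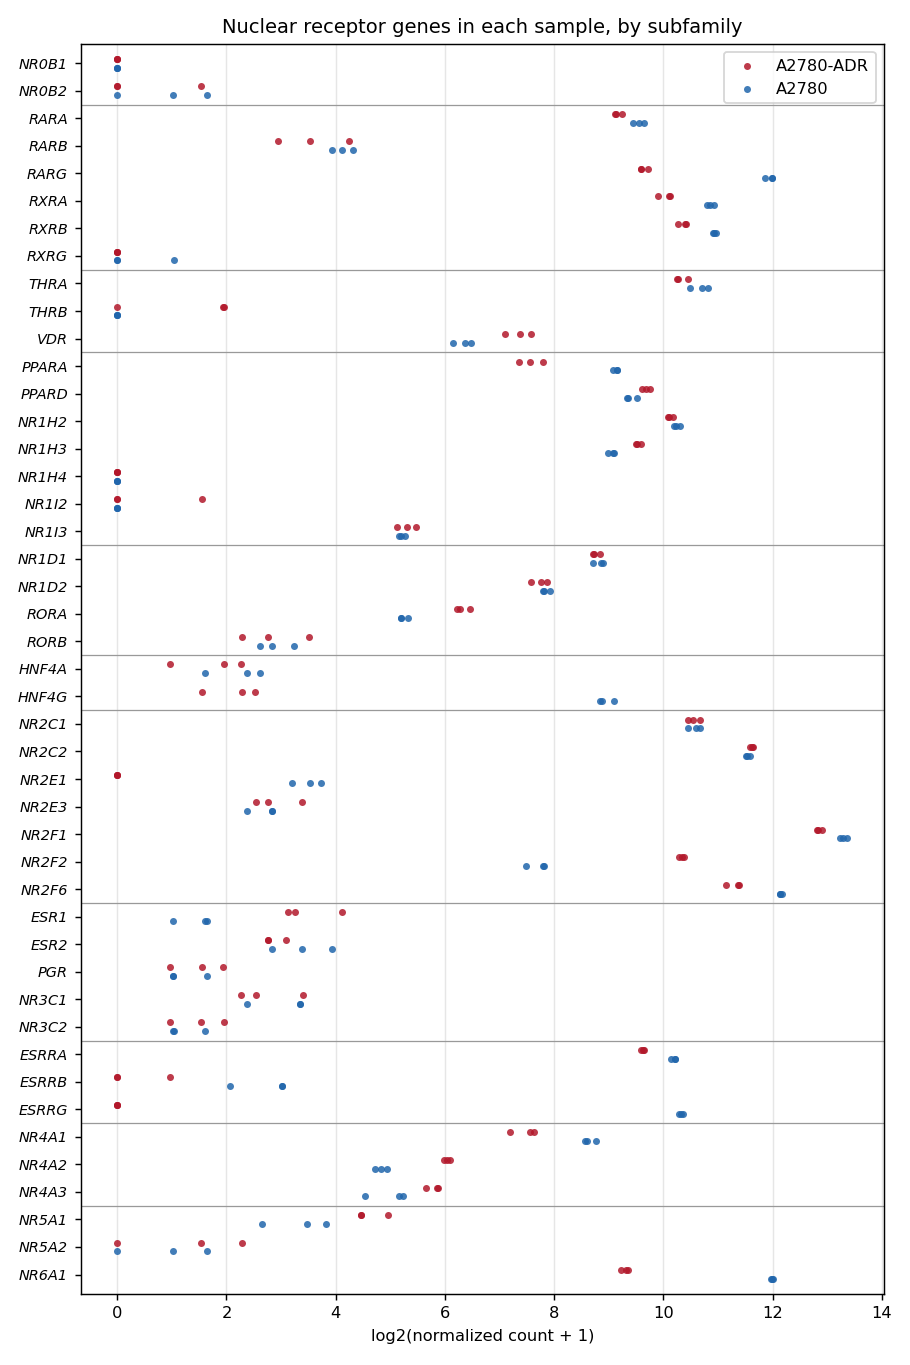
Level of all 45 nuclear receptor genes in each sample, as log2(normalized count + 1) on the horizontal axis, with A2780-ADR samples in red above A2780 samples in blue and lines between subfamilies. ESRRG lies at 0 in all 3 A2780-ADR samples and near 1280 normalized counts in A2780, NR2F2 lies to the right in A2780-ADR, and the steroid hormone receptors (ESR1 to NR3C2) sit at the left in both lines.

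The 17 receptors under the filter had no value above 16.4 normalized counts in any sample, and 13 of them stayed under 10 in every sample. NR0B1 and NR1H4 had no read in any library, which allows up to 3 reads by counting error alone. A receptor that is high in 1 line can pass the filter through that line. Of the 28 tested, 25 averaged at least 10 in both lines, and 8 of those 25 were called (32%), against 19.9% of the 14997 tested genes that averaged at least 10 in both lines.

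**Figure D2:**
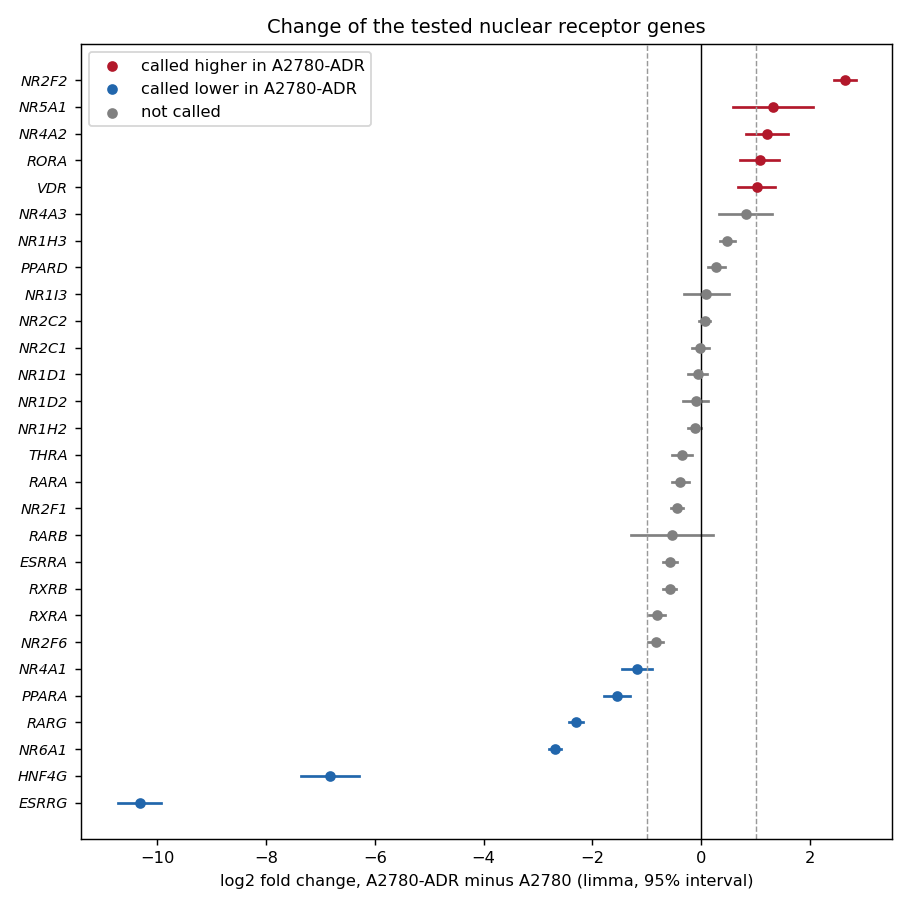
Log2 fold change, A2780-ADR minus A2780, of the 28 tested nuclear receptor genes with the 95% interval from limma, sorted by change, with dashed lines at 2-fold. Red genes were called higher and blue genes lower in A2780-ADR, from 2.63 for NR2F2 to -10.32 for ESRRG.

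Among the retinoid receptors, RARG was the one called, and it fell. RARG encodes retinoic acid receptor gamma, which binds all-trans retinoic acid. It lies on chromosome 12 (chr12:53210567-53232980, minus strand, GRCh38). RARG had 766, 844 and 771 normalized counts in A2780-ADR cells, against 4068, 4046 and 3699 in A2780 cells. The samples of the lines were far apart, and the mean was 4.96-fold lower in A2780-ADR (log2 fold change -2.31, SE 0.06, adjusted p = 1.21e-11). RARA, which encodes the alpha form, averaged 572 ± 25.5 normalized counts in A2780-ADR and 748 ± 54.7 in A2780 (SD, n = 3 each), with a log2 fold change of -0.38 that passed the adjusted p (0.000543) but not the fold. RARB, the beta form, was low in both lines, at 18.0, 10.6 and 6.74 normalized counts in A2780-ADR and 16.3, 14.3 and 19.0 in A2780 (adjusted p = 0.174). Divided by the exon length of each gene, RARG made up 55.5% ± 0.721 of the counts per kilobase of the RAR genes in A2780-ADR and 82.5% ± 0.473 in A2780. The sum of these genes was 279 ± 13.7 counts per kilobase in A2780-ADR and 931 ± 50.2 in A2780. The retinoid X receptors, the shared partners of many other receptors, were not called. RXRA averaged 1058 ± 92.2 normalized counts in A2780-ADR and 1860 ± 88.0 in A2780 (log2 fold change -0.82, adjusted p = 5.13e-07), and RXRB averaged 1311 ± 69.1 in A2780-ADR and 1957 ± 40.4 in A2780 (log2 fold change -0.58, adjusted p = 1.32e-06). Per kilobase, RXRB made up 77.8% of the RXR counts in A2780-ADR and 74.8% in A2780. RXRG had 0 reads in A2780-ADR and 1 in A2780.

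The genes that supply and clear retinoids differed between the lines in both directions. Of the 12 tested genes of this list of 17, 4 were called higher and 6 lower, which is 83.3%, against 27.6% of all genes, with a median log2 fold change of -1.48. ALDH1A1 and ALDH1A2 encode enzymes that oxidise retinaldehyde to retinoic acid, and they changed in opposite directions. ALDH1A1 had 304, 340 and 327 normalized counts in A2780-ADR and 5.09, 3.06 and 3.17 in A2780 (log2 fold change 6.11, adjusted p = 1.5e-10). ALDH1A2 had 10.4, 4.82 and 3.85 in A2780-ADR and 417, 408 and 403 in A2780 (log2 fold change -5.90, adjusted p = 1.9e-09). The CYP26 enzymes, which break retinoic acid down, changed in opposite directions as well. CYP26B1 had 908, 916 and 942 normalized counts in A2780-ADR and 67.1, 60.1 and 60.2 in A2780 (log2 fold change 3.86). CYP26A1 had 3.78, 2.89 and 2.89 in A2780-ADR and 249, 190.5 and 210.1 in A2780 (log2 fold change -5.70). Of the proteins that carry retinoic acid in the cell, FABP5 averaged 1431 ± 126 in A2780-ADR and 609.7 ± 35.0 in A2780 (log2 fold change 1.23), while CRABP1 had 4 reads in A2780-ADR and 137 in A2780, 36.9-fold lower in A2780-ADR with a 95% counting interval of 14.1 to 137. CRABP2, another of these carriers, rose (21629.9 ± 829 normalized counts in A2780-ADR and 9804 ± 428 in A2780, log2 fold change 1.14). Named after their values were seen, STRA6, the receptor that takes up retinol (483 ± 12.3 in A2780-ADR and 4396 ± 249 in A2780, log2 fold change -3.18), DHRS3, which reduces retinaldehyde to retinol (log2 fold change -3.24), and LRAT, which esterifies retinol (log2 fold change -2.36), fell. On the other strand AQP9 overlaps ALDH1A2 and CCDC33 overlaps STRA6, at means of 16.7 and 149 normalized counts.

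**Figure D3:**
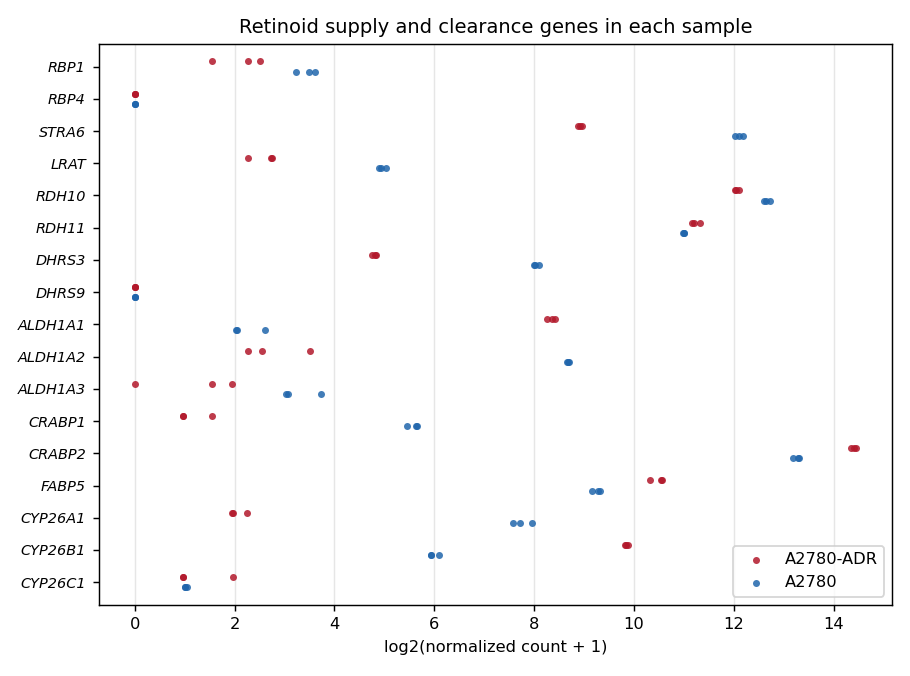
Level of the 17 genes of the retinoid supply and clearance list in each sample, as log2(normalized count + 1), with A2780-ADR in red above A2780 in blue. ALDH1A1 and CYP26B1 lie to the right in A2780-ADR, and ALDH1A2, CYP26A1, STRA6 and DHRS3 lie to the right in A2780, with no overlap of samples.

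Of the 11 tested genes of 18 known to respond to retinoic acid, 3 were called higher and 5 lower (72.7%, against 27.6% of all tested genes). Their median log2 fold change was -0.54. This list shares 6 genes with the one above, CYP26A1 and CYP26B1 among them. MEIS1, a homeobox factor, had 27.4, 27.9 and 44.3 normalized counts in A2780-ADR and 2370.4, 2402 and 2546 in A2780 (log2 fold change -6.19). MEIS2, its paralog, had 15802, 15388 and 16095 in A2780-ADR and 5449, 5503 and 5596 in A2780 (log2 fold change 1.51), so the paralogs changed in opposite directions. RARRES3, a retinoid-responsive phospholipase, had 6 reads in A2780-ADR, all of them in 1 library, and 548 in A2780, 98.3-fold lower in A2780-ADR with a counting interval of 44.9 to 269.

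RAR and RXR pairs bind a DR5 element, a pair of hexamers in the same direction with 5 bases between them. The DR5 retinoic acid response element was searched by its consensus on both strands in the 250 bases before each annotated start of RefSeq (GRCh38.p14). Of 35116 such windows, 26 (0.0740%) held a match. Of the receptors, 40 were matched by symbol, with 90 windows of which some overlap, and RARB was the only one with a match. CYP26A1 of the retinoid list also held one, and both windows are printed because they show the element of retinoic acid feedback beside a receptor that was low in both lines and an enzyme that fell. Capitals mark the match, on the reverse strand in CYP26A1. A match is a description of letters, and binding was not measured.
RARB, chr3:25428013-25428262, plus strand, match beginning 53 bases before the start: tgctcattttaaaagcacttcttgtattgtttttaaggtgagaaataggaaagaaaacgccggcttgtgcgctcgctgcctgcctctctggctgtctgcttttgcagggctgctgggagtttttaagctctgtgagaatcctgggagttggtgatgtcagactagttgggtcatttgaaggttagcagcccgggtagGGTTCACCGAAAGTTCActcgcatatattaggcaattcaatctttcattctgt
CYP26A1, chr10:93073643-93073892, plus strand, match beginning 90 bases before the start: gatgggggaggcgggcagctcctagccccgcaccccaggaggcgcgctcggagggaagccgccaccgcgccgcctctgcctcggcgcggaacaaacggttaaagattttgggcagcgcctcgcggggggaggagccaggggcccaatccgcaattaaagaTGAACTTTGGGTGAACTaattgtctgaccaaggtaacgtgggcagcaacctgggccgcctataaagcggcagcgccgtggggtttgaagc

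Of the estrogen-related receptors, orphan receptors that control mitochondrial and energy genes, ESRRG was the receptor with the largest change of the 28 tested. ESRRG, on chromosome 1 (chr1:216503246-217137755, minus strand), had 0 normalized counts in all 3 A2780-ADR samples, against 1279.8, 1312 and 1249.8 in A2780. With 0 reads against 3730, and 3 reads over the A2780-ADR libraries as the limit for a count of 0, it was at least 1338-fold lower in A2780-ADR (log2 fold change -10.32, which depends on the pseudocount, adjusted p = 6.35e-13). ESRRA, the alpha form, was present in both lines, at 786 ± 15.96 normalized counts in A2780-ADR and 1169.9 ± 31.3 in A2780 (log2 fold change -0.57, adjusted p = 1.78e-06), and was not called. ESRRB, the beta form, had 1 read in A2780-ADR and 17 in A2780 and was under the filter. Per kilobase, ESRRG made up 0% of the ERR counts in A2780-ADR and 23.3% ± 0.245 in A2780, and ESRRA made up 99.98% in A2780-ADR and 76.5% in A2780.

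**Figure D4:**
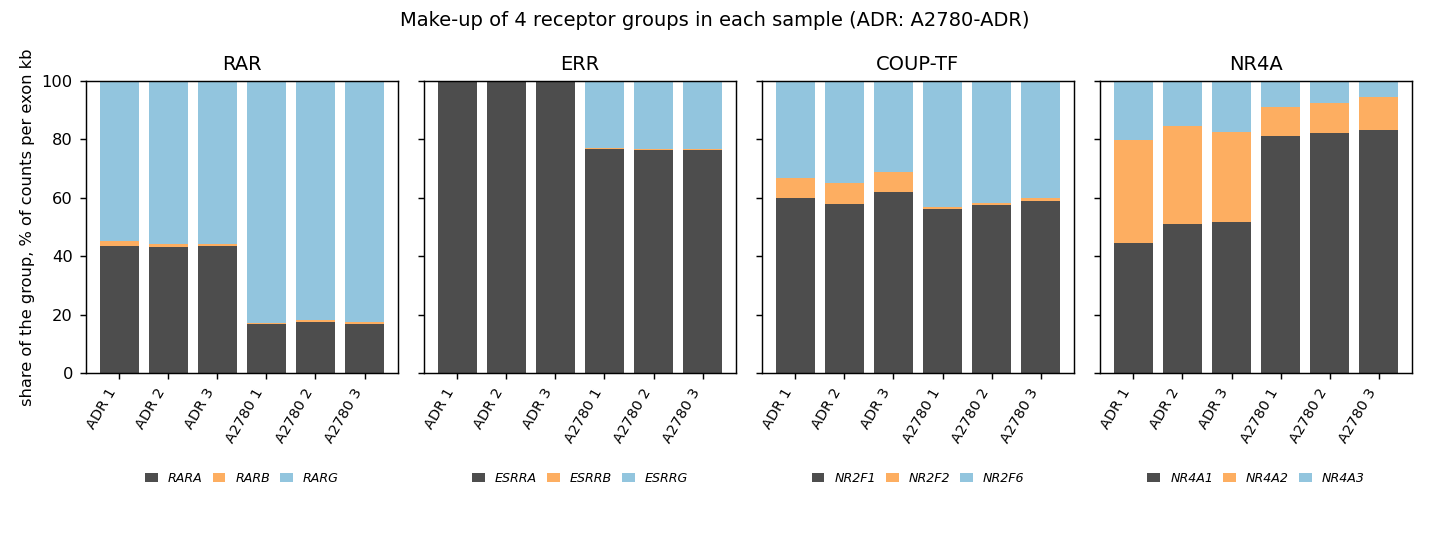
Share of each gene in its receptor group, as percent of normalized counts per kilobase of exon, in each of the 3 A2780-ADR samples (ADR 1 to 3, left) and the 3 A2780 samples (right), for the RAR, ERR, COUP-TF and NR4A genes. RARG makes up 55.5% and 82.5% of the RAR counts in A2780-ADR and A2780, ESRRG 0% and 23.3% of the ERR counts, NR2F2 6.99% and 0.794% of the COUP-TF counts and NR4A1 49.1% and 82.3% of the NR4A counts, as means in A2780-ADR and A2780.

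HNF4G fell as well. It encodes hepatocyte nuclear factor 4 gamma, a relative of the liver and gut regulator HNF4A, and lies on chromosome 8 (chr8:75407914-75566843, plus strand). HNF4G had 4.73, 1.93 and 3.85 normalized counts in A2780-ADR, against 468, 547 and 459 in A2780. The 11 reads in A2780-ADR and 1432 in A2780 gave a level 140.1-fold lower in A2780-ADR, with a 95% counting interval of 78.1 to 281 (log2 fold change -6.82, SE 0.24, adjusted p = 2.01e-10). HNF4A had 8 reads in A2780-ADR and 11 in A2780. Of 5 hepatocyte markers, 2 could be tested, and their part in this result was not tested: FGB fell (28.4 normalized counts in A2780-ADR and 1439 in A2780), APOA1 rose (17.9 in A2780-ADR and 2.76 in A2780), ALB had 6 reads in A2780-ADR and 5 in A2780, and TTR had none. Their summed level was 47.3 to 50.1 in A2780-ADR and 1429 to 1461 in A2780.

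The COUP transcription factors are orphan receptors of development and of blood vessel and nerve cell fate, and NR2F2 was the receptor that rose most. NR2F2 (COUP-TFII), on chromosome 15 (chr15:96325938-96340263, plus strand), had 1293, 1338 and 1243 normalized counts in A2780-ADR, against 179, 224 and 222 in A2780. This was 6.20-fold higher in A2780-ADR (log2 fold change 2.63, SE 0.09, adjusted p = 1.58e-10). Its relatives NR2F1 and NR2F6 had the highest levels per kilobase of all 45 receptors in both lines, at 1714 and 947 counts per kilobase in A2780-ADR and 2336 and 1691 in A2780. NR2F1 (COUP-TFI) averaged 7393 ± 255 normalized counts in A2780-ADR and 10076 ± 453 in A2780 (log2 fold change -0.45, adjusted p = 3.42e-06). NR2F6 averaged 2533 ± 222 in A2780-ADR and 4526 ± 62.4 in A2780 (log2 fold change -0.84, adjusted p = 1.14e-07), and neither was called. NR2F2 made up 6.99% ± 0.226 of the counts per kilobase of these genes in A2780-ADR and 0.794% ± 0.0872 in A2780. An antisense gene, NR2F2-AS1, overlaps NR2F2 over 1424 bases and had a log2 fold change of 6.09 at a mean of 54.9 normalized counts over the 6 samples, against 749.9 for NR2F2. The kit keeps strand, but no source used here gives the strand setting of the counting.

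The testicular receptors NR2C1 (1505 ± 118 normalized counts in A2780-ADR and 1526 ± 111 in A2780, 95% interval of the log2 fold change -0.18 to 0.14) and NR2C2 (3131 ± 74.0 in A2780-ADR and 2995 ± 70.3 in A2780, interval -0.03 to 0.16) did not pass the adjusted p. NR2E1 (TLX), an orphan receptor of neural stem cells, had 0 reads in A2780-ADR and 30 in A2780, at least 10.8-fold lower in A2780-ADR, and was under the filter. NR2E3, a photoreceptor cell factor, had 21 reads in A2780-ADR and 16 in A2780. NR2C2 overlaps MRPS25 over 11141 bases and FGD5-AS1 over 841 bases, both on the other strand. These genes averaged 3359 and 3600 normalized counts over the 6 samples, against 3063 for NR2C2.

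The NR4A receptors are orphan receptors that many signals, cyclic AMP and calcium among them, induce within minutes, and their members went in different directions. NR4A1 (NUR77), on chromosome 12 (chr12:52022832-52059507, plus strand), had 145, 188 and 198 normalized counts in A2780-ADR, against 386, 437 and 379 in A2780 (log2 fold change -1.18, SE 0.12, adjusted p = 3.35e-06). NR4A2 (NURR1), on chromosome 2 (chr2:156324432-156342348, minus strand), had 62.4, 67.4 and 64.5 in A2780-ADR, against 25.4, 29.5 and 27.4 in A2780 (log2 fold change 1.21, SE 0.18, adjusted p = 5.9e-05). Neither gene's samples overlapped between the lines. NR4A3 (NOR1) averaged 54.5 ± 4.71 in A2780-ADR and 31.1 ± 7.84 in A2780, with a log2 fold change of 0.82 that passed the adjusted p (0.00567) but not the fold. Per kilobase, NR4A1 made up 49.1% ± 3.95 of the NR4A counts in A2780-ADR and 82.3% ± 1.02 in A2780, and NR4A2 33.3% ± 2.22 in A2780-ADR and 10.4% ± 0.635 in A2780.

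NR6A1 and NR5A1 are neighbours on chromosome 9, 9845 bases apart on the minus strand, and were called in opposite directions. NR6A1 (GCNF) represses pluripotency and germ cell genes. NR6A1 (chr9:124517275-124771310) had 640.3, 649 and 598 normalized counts in A2780-ADR, against 4116, 4079 and 4008 in A2780, 6.47-fold lower in A2780-ADR (log2 fold change -2.69, SE 0.05, adjusted p = 1.17e-12). NR5A1 (SF1) drives steroid synthesis genes in adrenal gland and gonad. NR5A1 (chr9:124481236-124507430) had 30.3, 21.2 and 21.2 normalized counts in A2780-ADR, against 13.2, 10.2 and 5.28 in A2780 (log2 fold change 1.32, SE 0.34, adjusted p = 0.00392). The samples did not overlap, but the level was low, and without A2780 replicate 3 the log2 fold change was 0.98, under the fold threshold. NR5A2 (LRH1) had 6 reads in A2780-ADR and 3 in A2780. The upstream window of NR6A1 is shown because it holds a full cyclic AMP response element, TGACGTCA, in capitals, which 578 of the 35116 windows (1.65%) and 2 receptors, NR6A1 and NR2E1, held on either strand. Of the other motifs searched, TGACG, which the full element contains, lay in 17.8% of the 90 receptor windows and 21.2% of all windows, the receptor hexamer AGGTCA in 13.3% of receptor windows and 12.1% of all windows, and the GC box GGGCGG in 52.2% of receptor windows and 42.6% of all windows.
NR6A1, chr9:124771312-124771561, minus strand, match beginning 24 bases before the start: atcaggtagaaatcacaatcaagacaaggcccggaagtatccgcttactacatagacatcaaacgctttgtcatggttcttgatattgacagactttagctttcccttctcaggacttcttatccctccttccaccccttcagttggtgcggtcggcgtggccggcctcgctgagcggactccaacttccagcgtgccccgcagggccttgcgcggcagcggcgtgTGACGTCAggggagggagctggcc

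VDR, the vitamin D receptor, rose. VDR, on chromosome 12 (chr12:47841537-47943048, minus strand), had 136, 189 and 165 normalized counts in A2780-ADR, against 70.2, 87.6 and 81.3 in A2780 (log2 fold change 1.02, SE 0.15, adjusted p = 7.84e-05). The samples did not overlap, but the change lay at the fold threshold: its log2 fold change was 0.93 without A2780 replicate 1, 0.91 without A2780-ADR replicate 2 and 0.98 with a pseudocount of 5, so the call was lost in each. THRA, thyroid hormone receptor alpha, averaged 1280.02 ± 101 in A2780-ADR and 1638 ± 187 in A2780 (log2 fold change -0.35, adjusted p = 0.00252). THRA and NR1D1 overlap over 1081 bases on opposite strands. THRA also overlaps MED24 on the other strand, over 2926 bases. MED24 averaged 5166 normalized counts over the 6 samples, against 1459 for THRA. THRB, the beta form, had 6 reads in A2780-ADR and 0 in A2780. Of 7 tested genes of 16 listed for thyroid hormone or vitamin D, 2 were called higher and 3 lower (71.4%, against 27.6% of all tested genes). Their median log2 fold change was -0.58. ME1, malic enzyme, rose (786 ± 50.8 normalized counts in A2780-ADR and 273 ± 21.3 in A2780, log2 fold change 1.53). OSTM1 also rose (log2 fold change 1.12), though no source used here shows that it responds to either hormone. DIO3, SPP1 (osteopontin, log2 fold change -3.04) and BGLAP (osteocalcin, log2 fold change -1.54) fell. BGLAP touches PAQR6 on the other strand.

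Of 17 tested genes of 24 that make, move or inactivate steroid, thyroid and vitamin D ligands, 3 were called higher and 3 lower (35.3%). The share over all tested genes was 27.6%, and the median log2 fold change of the 17 was -0.22. The deiodinases went in opposite directions. DIO2, which activates thyroid hormone, had 23.6, 45.3 and 40.4 normalized counts in A2780-ADR and 2.03, 1.02 and 1.06 in A2780 (log2 fold change 3.96). DIO3, which inactivates it, had 0 in all A2780-ADR samples and 289.9, 325 and 303 in A2780, at least 319.7-fold lower in A2780-ADR. CYP7B1, an oxysterol hydroxylase, rose, with 179 reads in A2780-ADR and 1 in A2780, 166-fold higher with 95% counting limits of 29.5 and 6605. AKR1C2 and AKR1C3, which reduce steroid ketones, fell, with log2 fold changes of -3.48 and -3.82. They are close paralogs, so how reads were divided between them is uncertain.

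Of the lipid sensors, PPARA fell. It encodes a fatty acid receptor that drives fatty acid oxidation. PPARA, on chromosome 22 (chr22:46150521-46243756, plus strand), had 187, 163 and 222 normalized counts in A2780-ADR, against 569.7, 565 and 537 in A2780, 2.92-fold lower in A2780-ADR (log2 fold change -1.55, SE 0.11, adjusted p = 9.63e-08). PPARD, the delta form, averaged 819 ± 39.6 in A2780-ADR and 677 ± 46.0 in A2780 (log2 fold change 0.28, adjusted p = 0.00401) and was not called. Per kilobase, PPARA made up 7.30% ± 1.30 of the counts of PPARA and PPARD in A2780-ADR and 21.8% ± 0.975 in A2780. Of 13 tested genes of 19 known PPAR targets, 1 was called higher and 3 lower (30.8%, near the 27.6% of all tested genes). Their median log2 fold change was -0.28. FGF21, a fasting hormone, had 4 reads in A2780-ADR and 326 in A2780, 87.7-fold lower in A2780-ADR (33.9 to 324). ANGPTL4, an inhibitor of lipoprotein lipase, and FABP3, a fatty acid carrier, fell, with log2 fold changes of -1.995 and -1.68.

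The liver X receptors, which sense oxysterols, were present in both lines and were not called. NR1H3 (LXR alpha) averaged 741 ± 24.3 normalized counts in A2780-ADR and 531 ± 19.6 in A2780 (log2 fold change 0.48, adjusted p = 3.62e-05), and NR1H2 (LXR beta) averaged 1116 ± 41.4 in A2780-ADR and 1214 ± 46.5 in A2780 (95% interval of the log2 fold change -0.25 to 0.00, adjusted p = 0.0734). NR1H2 overlaps another gene on the other strand. Of 13 tested genes of 15 LXR targets, 4 were called higher and 2 lower (46.2%, against 27.6% of all tested genes). Their median log2 fold change was 0.48. MYLIP, a ligase that degrades the LDL receptor, had 238, 250 and 277 normalized counts in A2780-ADR and 3.05, 3.06 and 4.22 in A2780 (log2 fold change 5.86), and APOC1 and SMPDL3A rose with log2 fold changes of 1.37 and 1.76. ABCG1, a cholesterol transporter, had a log2 fold change of -1.03, which fell short of the fold threshold without A2780 replicate 1 (-0.84), without A2780-ADR replicate 2 (-0.85), with a pseudocount of 5 (-0.85) and with equal totals (-0.99).

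NR1I2 (PXR), the xenobiotic receptor of liver and gut, had 2 reads in A2780-ADR and 0 in A2780, and NR1I3 (CAR), its relative, had 34.0, 38.5 and 43.3 normalized counts in A2780-ADR and 34.6, 37.7 and 35.9 in A2780, with overlapping samples (adjusted p = 0.678). NR1I3 overlaps TOMM40L on the other strand over 1079 bases. NR0B2 (SHP), which bile acids induce in liver, had 2 reads in A2780-ADR and 3 in A2780. Of 7 tested genes of 17 targets of these receptors and of the bile acid receptor, 2 were called higher and 1 lower (42.9%). The share over all tested genes was 27.6%, and the median log2 fold change of the 7 was 0.67. ABCB1, the drug efflux pump, had 26769, 27779.6 and 29512 normalized counts in A2780-ADR and 0, 2.04 and 1.06 in A2780. ABCC2, another efflux pump, had 8686.5, 8582 and 9026 in A2780-ADR and 31.5, 50.9 and 36.9 in A2780 (log2 fold change 7.77). FGF19, a bile acid-induced hormone, fell (log2 fold change -2.47).

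RORA, a receptor that activates clock genes through the element that REV-ERB receptors repress, rose. RORA, on chromosome 15 (chr15:60488284-61229319, minus strand), had 73.8, 86.7 and 76.0 normalized counts in A2780-ADR, against 35.6, 35.6 and 39.1 in A2780 (log2 fold change 1.08, SE 0.16, adjusted p = 8.78e-05). An antisense gene, RORA-AS1, lies within its span and had a log2 fold change of 0.98. The REV-ERB genes were within the spread of the samples, at 432 ± 20.4 normalized counts in A2780-ADR and 452 ± 28.1 in A2780 for NR1D1 (adjusted p = 0.466) and 213 ± 21.3 in A2780-ADR and 229 ± 12.6 in A2780 for NR1D2 (adjusted p = 0.395). RORB had 21 reads in A2780-ADR and 19 in A2780. Of 17 clock genes, all tested, 5 were called higher and 3 lower (47.1%, against 27.6% of all tested genes). Their median log2 fold change was 0.03. ARNTL2, a clock activator, and HLF, an output factor, rose, with log2 fold changes of 2.26 and 2.24. BHLHE41, a clock repressor, had 4 reads in A2780-ADR and 188 in A2780 (log2 fold change -5.05), and the output factors TEF and DBP fell, with log2 fold changes of -1.13 and -1.06.

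None of the 5 steroid hormone receptor genes of the list passed the filter. ESR1, estrogen receptor alpha, had 34 reads over the A2780-ADR libraries and 5 over the A2780 libraries. It overlaps SYNE1 on the other strand over 7936 bases, and SYNE1 had a log2 fold change of 4.11 at a mean of 1025 normalized counts. ESR2, the beta form, had 20 reads in A2780-ADR and 29 in A2780. It overlaps SYNE2 on the other strand over 142202 bases, and SYNE2 had a mean of 1360 normalized counts. PGR, the progesterone receptor, and NR3C2, the mineralocorticoid receptor, each had 6 reads in A2780-ADR and 4 in A2780. NR3C1, the glucocorticoid receptor, had 19 reads in A2780-ADR and 22 in A2780. With the filter removed, ESR1 (log2 fold change 2.08, adjusted p = 0.00298), NR2E1 and ESRRB were also called, in the limma fit and in edgeR.

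Genes known as targets of steroid receptors differed in both directions. Of 16 tested genes of 18 glucocorticoid and progesterone targets, 3 were called higher and 4 lower (43.8%, against 27.6% of all tested genes). Their median log2 fold change was -0.59. TFCP2L1, an epithelial factor, had 859, 780.3 and 844 normalized counts in A2780-ADR and 47.8, 33.6 and 32.7 in A2780 (log2 fold change 4.43), and SGK1, a kinase of ion transport, and ERRFI1, an inhibitor of the EGF receptor, rose with log2 fold changes of 3.10 and 2.09. TSC22D3 (GILZ), a classical glucocorticoid target, fell (305 ± 25.7 normalized counts in A2780-ADR and 1179 ± 27.4 in A2780, log2 fold change -1.95), as did KLF15 and GPX3, with log2 fold changes of -2.13 and -2.91. Of 13 tested genes of 16 estrogen receptor targets, 2 were called higher and 4 lower (46.2%, against 27.6% of all tested genes). Their median log2 fold change was -0.19. STC2, a secreted glycoprotein, had 339, 320 and 286 normalized counts in A2780-ADR and 12755, 11715 and 11416 in A2780 (log2 fold change -5.25). IGFBP4 and GREB1 fell, with log2 fold changes of -4.11 and -3.19, and CA12, a carbonic anhydrase, and EGR3 rose, with log2 fold changes of 1.35 and 1.29.

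Few of the proteins that receptors work through were called. Of 17 tested coactivators 2 were called, both lower (11.8%), and of 13 corepressors 1, also lower (7.69%), against 27.6% of all tested genes. Their median log2 fold changes were -0.14 and -0.11. By adjusted p alone 12 of these coactivators and 7 of these corepressors passed, in both directions, against 71.8% of all tested genes. NCOA3 (1236 ± 37.9 normalized counts in A2780-ADR and 2670.2 ± 54.2 in A2780, log2 fold change -1.11) and EP300, an acetyltransferase (3287 ± 158 in A2780-ADR and 7104 ± 493 in A2780, log2 fold change -1.11) were the coactivators called lower. Of the 13 chaperones of steroid receptors 0 were called by limma, 0 by edgeR and 0 by DESeq2. By limma 10 had an unadjusted p under 0.05, and 10 an adjusted p under 0.05, which 71.8% of all tested genes passed, with a median log2 fold change of 0.13 over the 13.

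**Figure D5:**
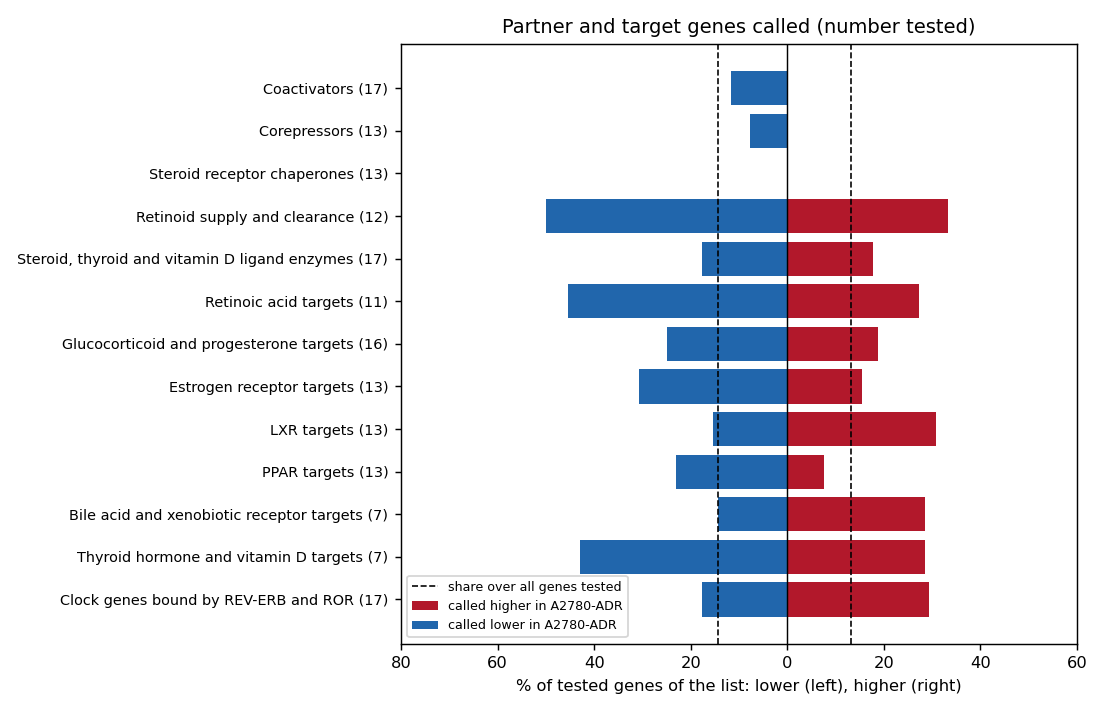
Share of the tested genes of each partner and target list that was called lower (blue, left) and higher (red, right) in A2780-ADR, in percent, with the number tested in brackets. Dashed lines mark the shares over all genes tested, 14.4% lower and 13.2% higher; the retinoid supply list has 6 lower and 4 higher of 12, and the chaperones have none of 13.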

How the data were processed

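Libraries of 3 A2780-ADR and 3 A2780 samples were made with the TruSeq Stranded mRNA kit, and the label of each sample gave its line. The deposited signal values are read counts per Ensembl gene that the authors normalized with DESeq; STAR, HTSeq and GRCh38 stand in the submitters' processing notes, with no version, annotation release or strand setting given there. Reads were recovered by dividing by the smallest value of each sample, which left 100% of positive values within 0.01 of whole numbers. GENCODE release 29 (GRCh38) gave names to 57447 of 58051 genes, with positions and exon lengths, and upstream windows came from RefSeq (GRCh38.p14).

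Genes with a mean of at least 10 were compared on log2(value + 1) with limma 3.58.1 in R 4.3.3, adjusted over 17005 genes. Alternatives were pseudocounts of 0.5 and 5, no filter, a mean of at least 50, TMM and equal-total scaling, robust moderation, replicate number as a block, no fold threshold, each sample left out, and edgeR 4.0.16 and DESeq2 1.42.0 on the recovered reads. The fit was tested on simulated data. Counting intervals and the 3-read limit for a count of 0 cover counting error alone.

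Named are every called receptor, uncalled receptors with a mean of at least 500 and, per list, up to 3 called genes of each direction with the largest change; other genes were named after their values were seen, except receptors under the filter and adjacent genes. Some genes that this rule names are counted but not reported here by name. The members and the 13 partner and target lists were chosen with earlier results of these data known, so their counts are descriptions. Python 3.11.15 with scipy 1.17.1 and matplotlib 3.10.9 was used for counts and figures.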

Additional observations from a re-analysis of the deposited data

How the results depend on the processing

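The 11 receptor calls were made as well by edgeR and by DESeq2, and leaving out each sample gave 10 to 11 receptors (4 to 5 higher, 6 to 6 lower), 4637 to 4742 of all genes and 59 to 60 partner and target genes. VDR lost its call without A2780 replicate 1, without A2780-ADR replicate 2 or with a pseudocount of 5, and NR5A1 without A2780 replicate 3. With no filter 14 receptors were called by limma and, in a fit added after seeing the data, by edgeR, and 3512 genes were called higher. A mean of at least 50 tested fewer genes: 2955 were called (1400 higher, 1555 lower), 3 receptors higher, 2 ligand enzymes and 4 glucocorticoid and progesterone targets. With no fold threshold 12210 genes were called (6013 higher, 6197 lower), 21 receptors (8 higher, 13 lower) and 128 partner and target genes, among them 12 coactivators, 7 corepressors, 10 chaperones, 14 ligand enzymes, 13 glucocorticoid and progesterone, 10 estrogen receptor, 11 LXR, 12 PPAR, 7 bile acid and xenobiotic receptor and 15 clock genes. No value of a named gene changed direction past the threshold. TMM scaling and equal totals moved the median log2 fold change of all genes to -0.02 and 0.03. For receptors with few reads, depth limits what could be seen.

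Equal replicate numbers share only a number: the deviations of equally numbered samples from their line means had correlations of 0.00398, -0.0159 and 0.0771. With the replicate block 11 receptors were called, and none of 88 named genes changed its call.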

Other observations

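The protein-coding genes next to the called receptors were looked up among the tested genes. Of the 22 adjacent positions of the 11 receptors, 10 held a called gene, of which 2 were NR5A1 and NR6A1, each the neighbour of the other. Without these, 8 of 20 positions held a called gene (40%), against 26.7% of all tested protein-coding genes, and 7 of the 8 changed in the direction of the receptor. Both neighbours of HNF4G fell with it, CRISPLD1 (16.6 normalized counts in A2780-ADR and 805 in A2780) and ZFHX4 (5.74 in A2780-ADR and 1358 in A2780), although ZFHX4 lies 1114376 bases away. GPATCH2, a neighbour of ESRRG, averaged 742 normalized counts in A2780-ADR and 1041 in A2780 and was not called. Both neighbours of NR2F2 were called higher, ARRDC4 (1031 in A2780-ADR and 151 in A2780), 1620435 bases away, and RGMA (29.7 in A2780-ADR and 13.7 in A2780), 3236734 bases away and at the fold threshold with a log2 fold change of 1.01. Around the pair NR5A1 and NR6A1, ADGRD2 beside NR5A1 rose (31.0 in A2780-ADR and 4.11 in A2780) and OLFML2A beside NR6A1 fell (87.7 in A2780-ADR and 484 in A2780), so the direction changed between the receptors. PRR34, 96377 bases from PPARA, had 37.0 normalized counts in A2780-ADR and 0 in A2780, where PPARA fell. The genes beside RARG, VDR, RORA, NR4A1 and NR4A2 were not called.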
